A study of Mus musculus with 2 samples.

Results

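The genes described here act on the growth of blood vessels and can be expressed by myeloid cells: Vegfa, Vegfb, Vegfc and Pgf (the VEGF family), Flt1 (one of its receptors), Pdgfa and Pdgfb (platelet-derived growth factor chains), Prok2 (prokineticin 2, also called Bv8) and Thbs1 (thrombospondin 1). Members were the probe sets whose only gene symbol in the platform annotation was 1 of these 9 symbols. There were 20 such probe sets for these 9 of the 18193 genes named on the array, among 34945 probe sets with 1 symbol and 45037 in all. The name "angiogenic growth factors" does not cover every member, since Thbs1 encodes an inhibitor of angiogenesis and Flt1 a receptor.

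RNA from 2 samples had been hybridised to Affymetrix arrays, 1 array per sample, both of marrow from the femurs of C57BL/6 mice grown with 5% serum. In the first sample (ID8-induced MDSC), marrow cells lay for 4 days in the lower chamber of 24-well transwell plates beneath ID8 cells, a mouse ovarian surface epithelial tumour line that the labels write both as ID8 and 1D8. The sample's title calls the inducer a supernatant, and the induced cells are labelled CD11b+Gr1+ and named MDSC, for myeloid-derived suppressor cells, which are immature cells that restrain T cells. The second sample was control marrow, labelled with the same CD11b+Gr1+ phenotype and with no stated time in culture. The number of mice behind each sample is not stated in the labels.

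The control array was not used for any member. Its signals descended along the probe set identifiers, with 0 rises in each of its 2 interleaved value ranges and rises at 6.89% of all 45036 steps, against 49.9% in the ID8-induced array. They could not be tied to probe sets, so no fold change was computed. Every value below is a MAS5 signal of the ID8-induced array, on the linear scale of the deposited table. With 1 array there is no replicate error and no test, and the number of arrays limits the precision of every statement. In RNA extracted from many cells together, a weak signal from few expressing cells and one from little RNA per cell cannot be told apart.

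VEGF-A drives endothelial growth mainly through the receptor encoded by Kdr, whereas placental growth factor (Pgf) and VEGF-B bind the receptor encoded by Flt1, and VEGF-C acts chiefly on lymphatic vessels through Flt4. The PDGF chains pair into dimers that act on fibroblasts, pericytes and smooth muscle. In mice bearing tumours, Prok2 is known as a product of CD11b+Gr1+ cells that is induced by granulocyte colony-stimulating factor through STAT3. Thbs1 is a secreted matrix glycoprotein, stored in platelets and also made by myeloid cells, that restrains endothelial cells through CD36 and CD47.

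The sequence upstream of 4 members is shown, in RefSeq's GRCm38.p6 annotation, because these genes span the range of signals described below: Prok2 and Vegfa with bright probe sets, Vegfc and Vegfb with dim ones only. Each of these windows lies outside the annotated gene. Each line gives the 250 bases before the annotated start, 5′ to 3′ on the gene's strand. Capitals mark matches, on either strand, to the hypoxia response core as ACGTG or as GCGTG, the E-box CACGTG, the STAT motif TTCNNNGAA, the AP-1 motif TGAGTCA, the cAMP response element TGACGTCA, the GC box GGGCGG and the TATA box TATAAA. Overlapping matches share their capitals. Prok2 lies at chr6:99726393-99726642 (minus strand), Vegfa at chr17:46032378-46032627 (minus strand), Vegfc at chr8:54077282-54077531 (plus strand) and Vegfb at chr19:6987652-6987901 (minus strand).
Prok2: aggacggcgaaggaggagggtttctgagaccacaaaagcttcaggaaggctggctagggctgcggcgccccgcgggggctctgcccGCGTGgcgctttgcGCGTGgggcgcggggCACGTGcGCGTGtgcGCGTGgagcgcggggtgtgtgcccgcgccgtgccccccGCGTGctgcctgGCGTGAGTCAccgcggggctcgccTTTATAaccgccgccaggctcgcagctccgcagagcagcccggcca
Vegfa: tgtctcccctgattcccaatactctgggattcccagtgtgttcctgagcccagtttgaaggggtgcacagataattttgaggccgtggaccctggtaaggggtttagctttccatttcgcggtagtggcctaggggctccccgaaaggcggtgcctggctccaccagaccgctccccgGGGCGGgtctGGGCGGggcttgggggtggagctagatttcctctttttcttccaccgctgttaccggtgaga
Vegfc: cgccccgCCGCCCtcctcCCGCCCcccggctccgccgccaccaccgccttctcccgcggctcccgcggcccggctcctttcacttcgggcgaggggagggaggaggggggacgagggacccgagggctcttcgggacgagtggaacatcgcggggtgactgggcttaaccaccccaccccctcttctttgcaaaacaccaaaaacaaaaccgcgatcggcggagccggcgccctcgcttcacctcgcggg
Vegfb: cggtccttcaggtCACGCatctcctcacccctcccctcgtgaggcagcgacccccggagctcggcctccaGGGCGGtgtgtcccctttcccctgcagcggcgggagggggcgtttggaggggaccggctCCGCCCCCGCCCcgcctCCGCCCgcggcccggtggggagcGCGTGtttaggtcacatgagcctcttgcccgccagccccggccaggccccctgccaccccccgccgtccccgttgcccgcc

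Of the 9 genes, 7 had windows in the promoter table, 10 windows in all (Thbs1 and Pdgfb are not among them). The 4 printed windows lie before the gene, and the other 6 lie inside the annotated gene, before inner starts of Flt1, Pdgfa, Pgf and Vegfa. The Prok2 window held 6 matches to GCGTG, 1 E-box, 1 AP-1 match and 1 TATA match. The E-box accounts for both of its ACGTG matches, 1 per strand, and the AP-1 match overlaps the last GCGTG. The printed Vegfa window held 2 GC boxes, and so did that of Vegfc, while that of Vegfb held 4 GC boxes and 2 GCGTG matches. Among the windows inside genes, that of Flt1 held 1 cAMP response element, 1 GCGTG match, 3 GC boxes and a TATA match 31 to 26 bases before its start. The inner Vegfa window held 1 ACGTG match, 1 GCGTG match and 1 GC box.

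**Figure D1:**
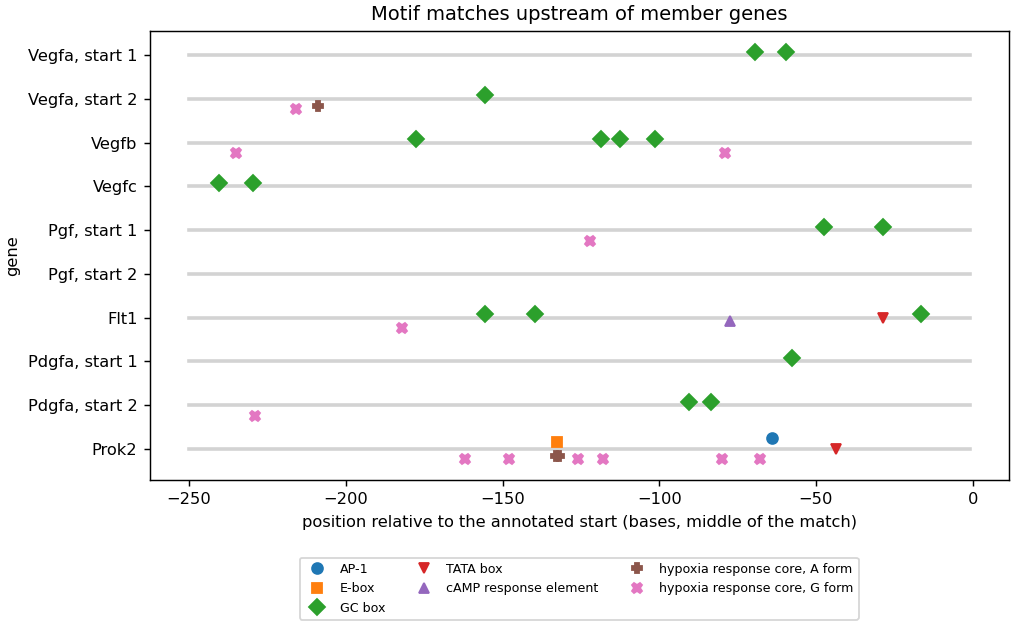
Positions of motif matches in the 250 bases before each annotated start (horizontal axis, position relative to the start in bases, negative upstream; 1 row per start, 10 rows for 7 genes). Prok2 carries 6 GCGTG matches, drawn as the G form of the hypoxia response core, and GC boxes appear in 8 of the 10 windows.

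A match is only a run of letters, and short motifs are common in such windows. Among 32851 windows of the same length in the table, 16.6% held ACGTG, 28.2% GCGTG, 6.02% CACGTG, 4.46% TGAGTCA, 1.55% TGACGTCA, 32.7% GGGCGG, 12.4% TATAAA and 7.02% TTCNNNGAA. In the 10 member windows the numbers were 2, 6, 1, 1, 1, 8, 2 and 0. These shares and numbers count windows with at least 1 match, so they give no background for 6 GCGTG matches within the 1 Prok2 window. The member windows were rich in G and C, at 59.2% to 76.4% against a median of 52.4% over all windows, and their matches to GC-rich motifs were not adjusted for that.

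Signals of the members fell on both sides of the level used here as a floor. No detection calls were given, so the 40th percentile of the array (68.77) stood in for them. The percentile of a probe set gives the percentage of the array that read lower. Of the 20 member probe sets, 13 lay at or above the floor, as did 63.5% of all probe sets with 1 symbol. By the brightest probe set, 7 of the 9 genes passed, as did 71.3% of 18193 genes. These shares do not set the members apart from genes at large. At or above the 95th percentile were 5 member probe sets, belonging to Vegfa, Prok2 and Thbs1, against 5.43% of probe sets with 1 symbol. The median percentile was 62.7 over the 20 member probe sets and 53.9 over all with 1 symbol. Probe sets differ in how well they hybridise, so an order of signals, here and in the lists below, is not an order of transcript abundance.

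**Figure D2:**
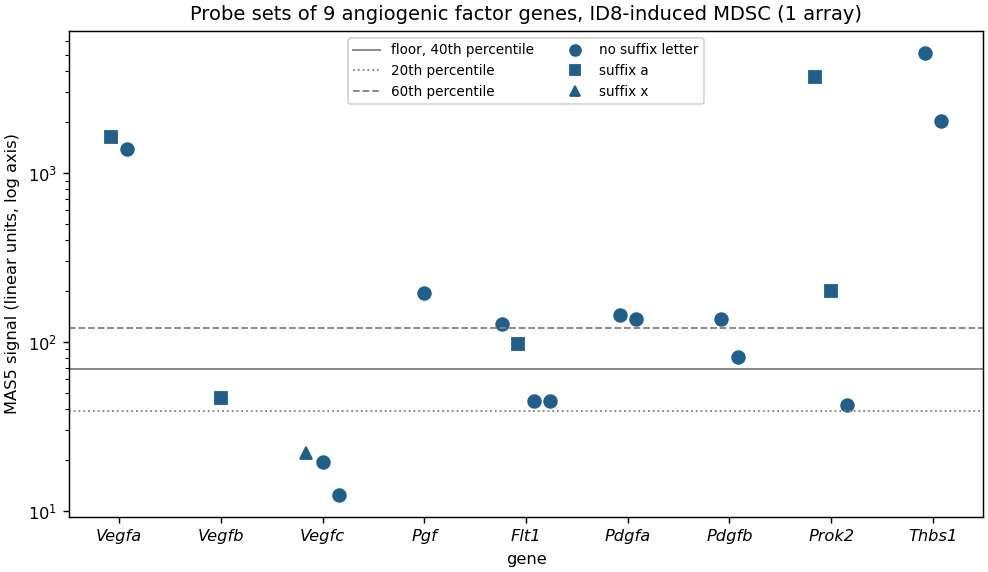
MAS5 signal of each of the 20 member probe sets in ID8-induced MDSC (vertical axis, linear units on a log axis; 1 point per probe set, shape by the suffix of its identifier; grey lines at the 20th, 40th and 60th percentile of the array). Vegfa and Thbs1 lie far above the floor on every probe set, Vegfb and Vegfc lie below it, and Prok2 spans 42.26 to 3695.

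Among the VEGF ligands, Vegfa was bright on both of its probe sets. One read 1626 (1451959_a_at, percentile 96.2) and the other 1391 (1420909_at, percentile 95.5), at 23.6 and 20.2 times the floor. The brighter signal was 1.17 times the dimmer, and 87.7% of the 4695 genes with 2 probe sets had a larger ratio, their median being 2.12. The gene lies at 46016993 to 46032377 on chromosome 17 and has 10 curated RefSeq transcripts, and the letter "a" in a probe set's suffix means that it was designed to match several transcripts of 1 gene. The brighter probe set carries that letter and so was not designed to separate the isoforms of Vegfa, which differ in their binding to matrix. Which isoforms each of the 2 probe sets matches is not stated in the sources used here.

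Pgf, on chromosome 12, had 1 probe set, which read 195.4 (percentile 73.1), or 2.84 times the floor. Vegfb, on chromosome 19, also had 1 probe set, and it read 46.49 (percentile 25.7), below the floor. Neither gene offers a second probe set as a check. All 3 probe sets of Vegfc, on chromosome 8, were among the dimmest of the array at 22.04, 19.47 and 12.44. Their percentiles were 7.95, 6.31 and 2.69, so 92.0% or more of all probe sets read higher than each of them. The brightest of the 3 carries the suffix "x", which marks probes that may also bind other transcripts.

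Flt1, the receptor for Pgf, VEGF-B and VEGF-A, is found on monocytes as well as on endothelium. Its 4 probe sets were split by the floor. They read 126.7 (percentile 61.6), 97.02 (52.8), 44.65 (24.4) and 44.58 (24.3), and each was designed from a different sequence record. The brightest was 2.84 times the dimmest, below the median of 5.25 among 1093 genes with 4 probe sets. Flt1 is transcribed into a full receptor and into shorter, soluble forms that act as decoys, and 2 curated transcripts are annotated. Which form each probe set matches is not stated in the sources used here.

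The PDGF genes lay above the floor on every probe set, between percentiles 46.5 and 65.5. The probe sets of Pdgfa, on chromosome 5, read 144.0 and 136.5 (percentiles 65.5 and 63.9), and those of Pdgfb, on chromosome 15, read 135.8 and 81.55 (63.7 and 46.5). The dimmer Pdgfb probe set was 1.19 times the floor. Both probe sets of Pdgfa were designed from 1 sequence record, as were both of Pdgfb, so agreement within each pair (1.05 and 1.66) is not a check by separate records.

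Prok2 (99711299 to 99726392 on chromosome 6) gave the widest disagreement among the members. Probe set 1419681_a_at read 3695 (percentile 98.5), 53.7 times the floor. Probe set 1426176_a_at read 198.8 (percentile 73.5) and probe set 1451952_at read 42.26 (percentile 22.6), below the floor. The last 2 were designed from the same sequence record and still differed 4.70-fold. From brightest to dimmest the ratio was 87.4, against a median of 3.48 among 2366 genes with 3 probe sets, of which 99.0% had a smaller ratio. Among all 9010 genes with several probe sets, 101 (1.12%) had a ratio as large as that of Prok2. The gene has 3 curated transcripts, and the part of the transcript that each probe set matches is not stated in the sources used here, so the high level of Prok2 rests on 1 probe set of 3.

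Thbs1 (118111876 to 118127133 on chromosome 2) was bright on both of its probe sets, which read 5096 (1460302_at, percentile 99.1) and 2026 (1450377_at, percentile 96.9). These are 74.1 and 29.5 times the floor, and their ratio of 2.52 was near the median of 2.12 for genes with 2 probe sets. Thus 5 genes (Vegfa, Pgf, Thbs1, Pdgfa and Pdgfb) had every probe set at or above the floor, 2 (Vegfb and Vegfc) had none there, and 2 (Prok2 and Flt1) lay on both sides. Pgf and Vegfb have 1 probe set each and could not lie on both sides. Over the array, 43.7% of the 9010 genes with several probe sets did so, a share for the members with several probe sets only. Of all 18193 genes, 71.3% had at least 1 probe set at or above the floor. The share with every probe set there was not computed.

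**Figure D3:**
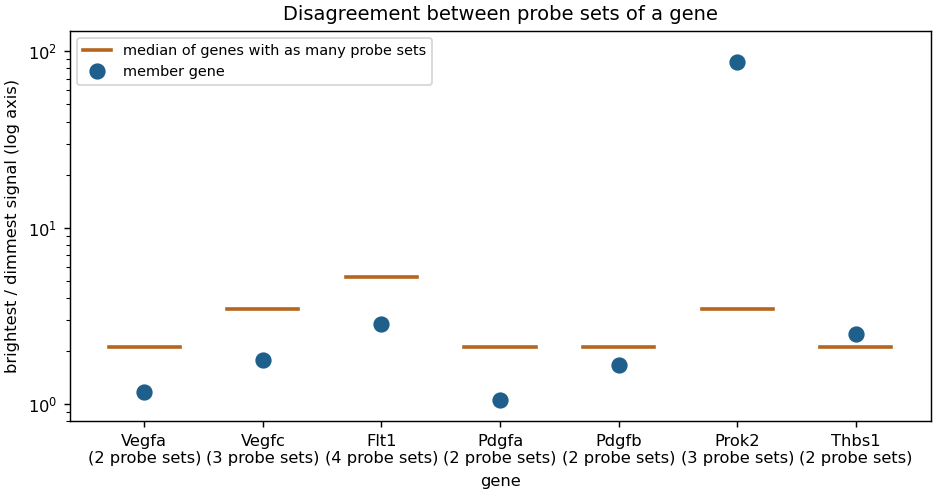
Ratio of the brightest to the dimmest signal for the 7 members with several probe sets (blue points, log axis), beside the median ratio of all genes with the same number of probe sets (brown bars). Prok2 stands at 87.4 against a median of 3.48, and the other members lie between 1.05 and 2.84.

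Genes that act with the members were read in the same way, by the brightest probe set. The 8 lists held 98 genes, of which 94 were measured and 75 lay at or above the floor. Over all genes the share was 71.3%, the median percentile 61.4, and 14.8% reached the 90th percentile. The ligands that complete the VEGF and PDGF families all lay below the floor, with Vegfd at 54.88, Pdgfc at 45.50 and Pdgfd at 24.01.

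Receptors for VEGF, placental growth factor, PDGF and prokineticin read near the floor. Of 8 such receptor and co-receptor genes besides Flt1, 4 passed and 0 reached the 90th percentile. Those above it were the co-receptor gene Nrp2 at 129.6, Kdr at 109.7, the prokineticin receptor gene Prokr1 at 77.43 and Flt4 at 71.62. Below it were Prokr2 at 58.20, the co-receptor gene Nrp1 at 57.90 and the PDGF receptor genes Pdgfrb at 55.20 and Pdgfra at 47.99. This count depended on the floor, with 8 passing at the 20th percentile and 1 at the 60th, and with 2 by the mean log2 signal over probe sets.

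Thbs1 has relatives and receptors of its own, of which 10 of 12 passed. The receptor gene Cd47 read 6207 on its brightest probe set and 69.55 on its dimmest. The integrin genes Itgav and Itgb1 read 1642 and 1331, with 44.13 and 11.31 on their dimmest probe sets, and Calr, a partner of thrombospondin at the cell surface, read 925.6. Cd36, the receptor through which thrombospondin inhibits endothelial cells, lay below the floor at 39.08, as did the family member Thbs4 at 45.75.

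Other angiogenic and mitogenic factors passed in 16 of 20 cases, and 3 reached the 90th percentile. With a floor at the 60th percentile 8 passed, and by the mean log2 signal over probe sets 9 did. The highest signals were those of Mmp9 (gelatinase B, which frees VEGF from matrix) at 3517, Grn (progranulin) at 2516, the semaphorin gene Sema4d at 2138 and Adm (adrenomedullin) at 576.8. Fgf2 (basic fibroblast growth factor) at 16.66, Ereg at 34.79, Igf1 at 58.92 and Egf at 61.27 lay below the floor. Inhibitors of angiogenesis passed in 6 of 9 cases and 0 reached the 90th percentile, or in 3 cases with the mean log2 signal. The highest signals were those of Sparc at 267.6, Serpinf1 (pigment epithelium-derived factor) at 188.7, Col18a1 (the precursor of endostatin) at 177.7 and Spry4 at 158.7, whereas Col4a3, Adamts1 and Plg read 44.28, 36.07 and 30.28.

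Regulators of Vegfa and Prok2 and other genes that respond to low oxygen were bright as groups. All 18 measured regulators passed the floor and 12 reached the 90th percentile, with a median percentile of 95.8. Epas1 was the lowest of them at 96.57 (percentile 52.6). Egln3 and Egln1, oxygen-sensing prolyl hydroxylases, read 7778 and 3864, and Csf2rb (the shared receptor subunit of granulocyte-macrophage colony-stimulating factor) 4163. Hif1a (the oxygen-regulated factor that induces Vegfa) read 5202 on the brightest and 513.8 on the dimmest of 4 probe sets. Picked for their known roles upstream of Prok2 with their values already seen, Csf3r (the receptor of granulocyte colony-stimulating factor) read 3347 on 1 probe set, and Stat3 read 1738 on the brightest and 233.8 on the dimmest of 4. All 17 hypoxia-responsive genes passed and 14 reached the 90th percentile, with a median percentile of 98.6. Car9 at 143.4 and P4ha2 at 140.3 were the lowest of them (percentiles 65.4 and 64.7). The glycolytic enzyme genes Pgk1 and Ldha read 14189 and 13313, Ero1a (a disulphide-forming oxidase of the endoplasmic reticulum) 12875 and Bnip3 (a mitophagy receptor) 9952. Egln3 and Adm stand in more than 1 of these lists, and Csf3r is also counted among the neutrophil and MDSC markers below. Over the related and marker lists together, 9 genes stand in more than 1. The oxygen level of the cultures is not stated in the labels.

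Genes that splice or process the members passed in 6 of 9 cases. Furin, a protease that cleaves the precursors of PDGF and VEGF-C, read 3857. The splicing factor genes Srsf1 and Srsf6 and the kinase gene Srpk1, known to act on Vegfa splicing, read 2088, 541.7 and 459.9, with 119.2 on the dimmest of the 7 probe sets of Srsf1. Adamts3, which activates VEGF-C, lay below the floor at 44.33, as did the plasminogen activator genes Plau at 38.81 and Plat at 55.15.

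**Figure D4:**
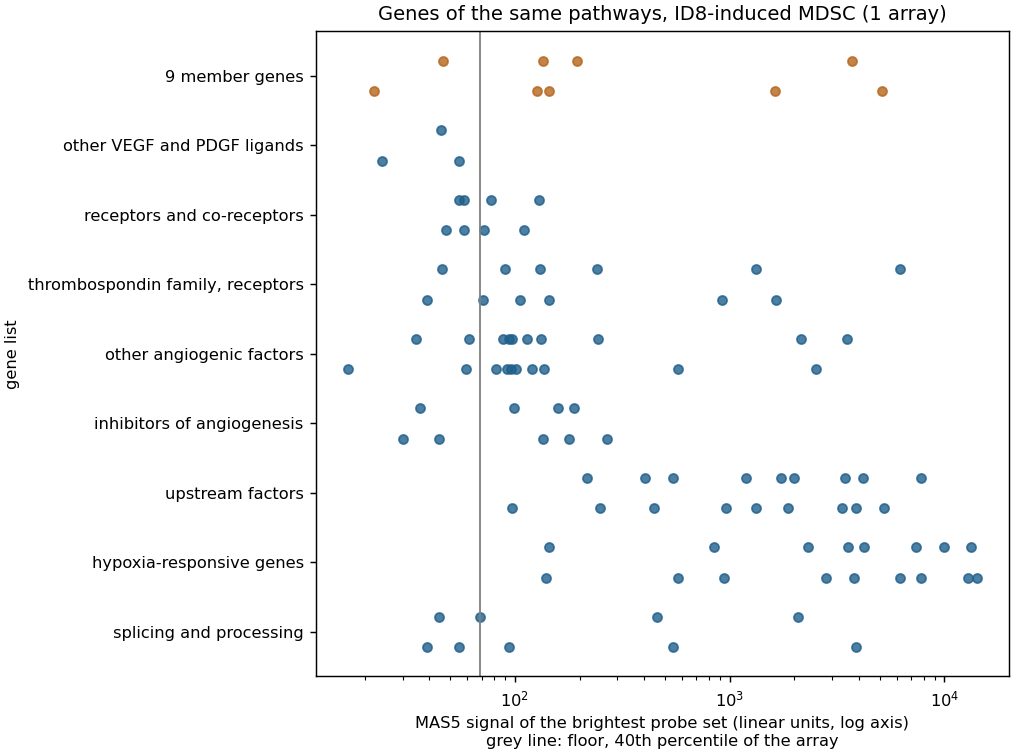
Signal of the brightest probe set (horizontal axis, linear units on a log axis) for the 9 members and for the genes of 8 related lists in ID8-induced MDSC, 1 point per gene, with the floor as a grey line. The upstream factors (18 of 18) and hypoxia-responsive genes (17 of 17) all lie above the floor, and the receptors cluster about it.

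The labelled cell type was set against markers, together with cells that could carry the members' transcripts into the culture. Neutrophil and MDSC markers passed in 11 of 11 cases and all 11 reached the 90th percentile, Itgam among them at 2375 (named, with its value seen, because it encodes the CD11b of the labels). Ly6g, part of the Gr1 antigen, is not analysed here. Monocyte and macrophage markers passed in 8 of 10 cases and 5 reached the 90th percentile. Lyz2 read 10887, Cd14 10143, Csf1r 4403 and Cd68 3597, whereas Mertk at 48.62 and C1qa at 35.04 lay below the floor.

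Platelets store VEGF-A, PDGF and thrombospondin, and their markers read in the middle of the array. Of 13 measured megakaryocyte and platelet markers, 10 passed and 0 reached the 90th percentile, with a summed signal of 1893. The highest signals were those of Ppbp at 308.3, Pf4 (platelet factor 4) at 207.2, Itgb3 at 202.9 and Selp at 178.8, and Vwf read 33.32. Endothelial markers passed in 7 of 15 cases (summed signal 3521). The brightest of 4 Egfl7 probe sets made up 2096 of that sum, the dimmest reading 80.80. After Egfl7 the highest signals were those of Eng at 366, Esam at 194.5 and Sox18 at 150.7. Tie1, Emcn and Tek, among those below the floor, read 24.35, 24.25 and 34.51. ID8 cells could add epithelial and mesothelial transcripts, whose markers passed in 8 of 14 cases with 0 at the 90th percentile (summed signal 1226). That count was 3 if the floor was set at the 60th percentile, 5 by the mean log2 signal and 4 of 9 without suffix letters. Fibroblast and stromal markers passed in 5 of 12 cases with 2 at the 90th percentile (summed signal 2309), in 9 with the floor at the 20th percentile and in 3 under each of the other alternatives. The 2 were Acta2 at 790.1 and Fn1 at 736.5, with 46.17 and 75.17 on their dimmest probe sets. The endothelial count was 11 with the floor at the 20th percentile and 4 of 10 without suffix letters. Over all genes, for comparison with every marker list, 71.3% passed the main floor and 14.8% reached the 90th percentile. No measured marker of these lists was at 0, but neither was any of the 18193 genes of the array. The lowest of those genes read 1.23. The part of these cells in the members' signals was not tested.

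**Figure D5:**
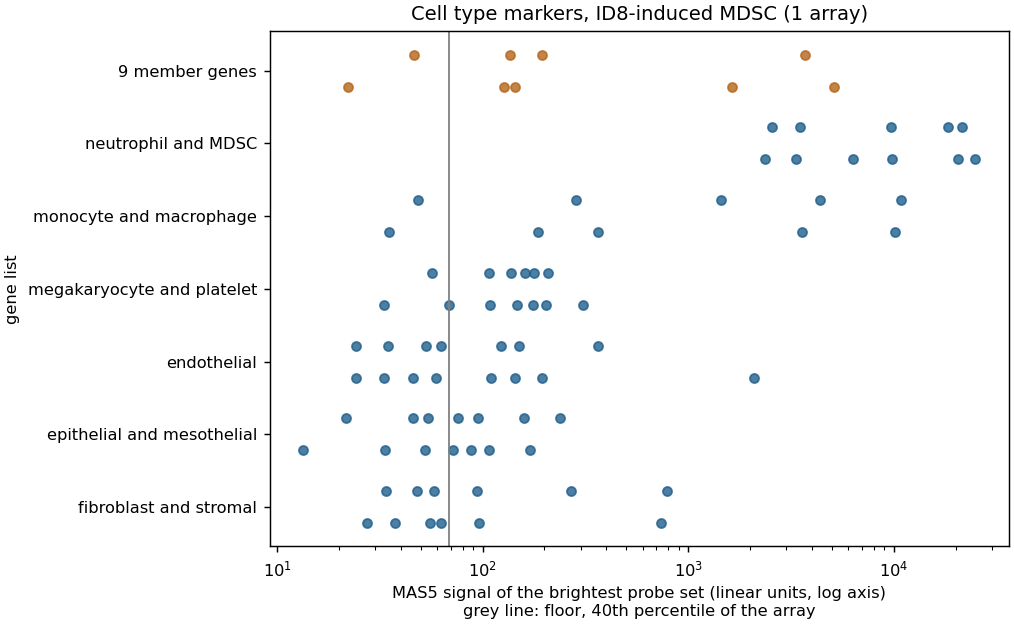
Signal of the brightest probe set (horizontal axis, linear units on a log axis) for the 9 members and for markers of 6 cell types in ID8-induced MDSC, 1 point per gene, with the floor as a grey line. All 11 neutrophil and MDSC markers read 2375 or more, and no megakaryocyte or platelet marker exceeds 308.3.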

How the data were processed

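Per the labels' protocols, TRIzol was used to extract total RNA, of which 6 ug went into biotinylated cRNA for Affymetrix arrays. Per the submitters' processing notes, MAS5 produced the values; the sources used here give no version, scaling target or detection calls. The deposited table holds 1 linear MAS5 signal intensity per probe set, read here as deposited. Gene symbols were taken from GEO's platform annotation (34945 with 1 symbol, 932 with several, 9160 with none), and positions and transcripts of all 9 genes came from the GRCm38.p6 RefSeq table through their gene IDs.

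The floor was the 40th percentile of the ID8-induced array, and the brightest probe set stood for a gene, which raises genes with many of them. The alternatives tried were a floor at the 20th or 60th percentile, the mean log2 signal and probe sets without a suffix letter. Named genes were all members and, per list, up to 4 of the strongest and up to 4 below the floor. Csf3r, Stat3, Itgam, Epas1, Car9 and P4ha2 were added after their values were seen. The members and lists were chosen with earlier results of these data known. The planned comparison of protein sequences was not run. The counts and motif searches were tested on simulated data. Computation used Python 3.11.15, numpy 2.4.6 and pandas 2.3.3.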

Additional observations from a re-analysis of the deposited data

Results flagged for a closer look

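A probe set annotated to Thbs1 together with a second gene was left out of every count above, because its signal cannot be assigned to 1 gene. It read 5758.84 (percentile 99.3), above the floor of the array, and was picked out as a strong signal in a row that the description does not use. The annotation does not say which of the genes it names it measures, and a control level for it could not be read.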

How the results depend on the processing

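The counts of members and of related genes above the floor stayed within 1.5 times of the main count under the alternatives listed here. With the floor at the 20th percentile this was fixed for member and related genes, since all 9 or all 94 lie within that range. Counts, not shares, were compared here and for the lists, and without suffix letters fewer probe sets were read. The share of the whole array above the floor also moves with the floor. Shares over all genes or single-symbol probe sets were not computed for the other floors or the mean. These counts therefore do not set the members apart. Member probe sets above the floor were 13 of 20, then 17 with the floor at the 20th percentile, 11 at the 60th, and 9 of 14 without suffix letters. Of all 26992 probe sets with 1 symbol and no suffix letter, 60.8% lay at or above the main floor. Member genes were 7 of 9, then 8 at the 20th percentile, 7 at the 60th, 7 with the mean log2 signal and 6 of 8 without suffix letters, where Vegfb has no probe set. Related genes were 75 of 94, then 89 at the 20th percentile, 57 at the 60th, 59 with the mean and 66 of 86 without suffix letters. With the mean over probe sets, 3 of 9 member signals moved by over 1.5 times, Prok2 to 314.3, Thbs1 to 3213 and Flt1 to 70.32, which is just above the floor. Without suffix letters 1 of 8 did, Prok2 to 42.26, below the floor. With the probe set that carries a second symbol, an alternative chosen after seeing the data, the Thbs1 signal would be 5759. Counts of 14 lists moved by over 1.5 times for 4 at each other floor, 5 with the mean and 3 without suffix letters. These were the receptor, endothelial, fibroblast and stromal, epithelial and mesothelial, other angiogenic factor and inhibitor lists, whose values stand beside their counts, and the VEGF and PDGF ligands outside the members, 2 of 3 at the 20th percentile. No paired analysis was possible because each group holds 1 array and no test was made. The floor is not a detection limit, and signals below it are not evidence of absent transcripts.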
